A study of Mus musculus with 4 samples.

Results

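Nuclei that carry RNA of several matrix genes at once were picked out of 4 single-nucleus RNA libraries of mouse aorta. A nucleus was taken when it had at least 300 detected genes and at most 10% mitochondrial UMIs (unique molecular identifiers, each standing for 1 captured RNA molecule). It also needed at least 1 UMI for 4 or more of Cemip, Grin2a, Tnfrsf11b, Tnc, Lum, Timp1, Col6a3, Gpr176, Inhba and Col1a1. It could have a UMI for no more than 1 of Pi16, Scara5, Opcml, Pecam1, Cdh5, Csf1r, St18, Ms4a7, Adipoq and Ucp1, which are genes of adventitial fibroblasts, endothelium, macrophages and fat. The rule found 750 of the 107709 nuclei kept, and they are called matrix-gene nuclei here. The members were thus chosen by their measured UMIs, so the levels of the 20 rule genes and any difference from other nuclei are descriptions and were not tested.

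All mice carried the CA1 knockin (Car1 in the mouse annotation) on an ApoE-/- background, in the untreated group as well. Carbonic anhydrase 1 interconverts carbon dioxide and bicarbonate, and mice without apolipoprotein E develop atherosclerosis. Each group was 1 library. In MTZ-after, mice on high-fat food received methoxazolamide, an inhibitor of CA1 by the study's own account and abbreviated MTZ, once atherosclerosis was present. In MTZ-simultaneous, drug and diet were given at the same time. The high-fat library came from mice on the diet alone, and the untreated library from mice with no treatment. Age, the number of mice per library and the design of the knockin allele are not given in the sources used here. With 1 library per group no difference between groups has a replicate check, so no p-value or SD is given, and intervals are 95% intervals that cover counting error only.

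Mesenchymal cells of the artery wall include contractile smooth muscle cells of the media and fibroblasts of the adventitia. In atherosclerosis smooth muscle cells can lower their contractile genes and move into the plaque, where they secrete fibronectin, fibrillar collagens, proteoglycans and matrix-degrading enzymes. Fibrillar collagens give the fibrous cap its strength, and metalloproteinases cut them. Macrophages that take up lipid in the plaque express genes such as Gpnmb and Atp6v0d2, and free RNA from such cells can end up in droplets with other nuclei.

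The kept nuclei numbered 28093 in MTZ-after, 19261 in MTZ-simultaneous, 38016 in high-fat and 22339 in untreated. The median matrix-gene nucleus held 1588 UMIs in MTZ-after, 2057 in MTZ-simultaneous, 1265 in high-fat and 3474.5 in untreated, against 828, 1417, 969 and 2026 UMIs for all kept nuclei in the same order. Untreated members were thus the deepest and high-fat members the shallowest, and the rule counts detected genes, which deeper nuclei have more of. The summed UMIs of the members were 190079, 326226, 784225 and 458669 in that order. The 5 deepest nuclei held 15.4% of these UMIs in MTZ-after, 27.4% in MTZ-simultaneous, 7.52% in high-fat and 33.2% in untreated, so some sums rest on few nuclei. Libraries shared between 119 and 376 barcodes per pair, and in no pair did a shared barcode belong to a member in both libraries.

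About as many members fell just inside the rule as further inside it. Exactly 4 of the 10 matrix genes were detected in 48 of 95 members in MTZ-after, 47 of 104 in MTZ-simultaneous, 278 of 489 in high-fat and 27 of 62 in untreated. Nuclei just outside, with 3 matrix genes and the other conditions met, numbered 160, 177, 781 and 72 in that order. Another 86, 127, 740 and 115 nuclei had 4 or more matrix genes and were left out for their UMIs of fibroblast, endothelial, macrophage or fat genes. That is more nuclei than the rule took in the MTZ-simultaneous, high-fat and untreated libraries.

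Among the rule genes, Col1a1 and Col6a3 encode collagen chains, Lum a small proteoglycan of collagen fibrils, Tnc an adhesion-modulating matrix protein, and Timp1 a metalloproteinase inhibitor. Cemip takes part in hyaluronan breakdown, Tnfrsf11b encodes the RANKL decoy receptor osteoprotegerin, Inhba the activin A subunit, Grin2a a glutamate receptor subunit and Gpr176 an orphan receptor. On mm10, Col1a1 (ENSMUSG00000001506) lies on chromosome 11 from 94936224 to 94953042 on the plus strand. Cemip lies on chromosome 7 from 83932857 to 84086502 on the minus strand, and Lum on chromosome 10 from 97565128 to 97572703 on the plus strand. Levels are CPM, the summed UMI counts of a gene scaled to a common total per library. Col1a1 stood at 2936 CPM in MTZ-after members, 3513 in MTZ-simultaneous, 2974 in high-fat and 3787 in untreated. Cemip had 1063 CPM in MTZ-after, 742 in MTZ-simultaneous, 1048 in high-fat and 1653 in untreated members, carried by 33, 33, 147 and 17 nuclei. Lum had 1247, 779, 1150 and 600 CPM in the same order, and Inhba 479, 98.1, 200 and 144 CPM. Col1a1 was therefore the most abundant rule gene in every library, while Cemip and Inhba sat in a minority of members. Single nuclei weighed heavily: 43.3% of the Col1a1 counts in MTZ-simultaneous and 37.0% of those in untreated came from 1 nucleus.

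The share of kept nuclei that met the rule was highest in the high-fat library. It was 0.338% in MTZ-after (0.274 to 0.413, exact Clopper-Pearson), 0.540% in MTZ-simultaneous (0.441 to 0.654), 1.29% in high-fat (1.18 to 1.40) and 0.278% in untreated (0.213 to 0.356). The high-fat share was 4.63 times that of untreated (3.55 to 6.14). The MTZ-after share was 0.263 times that of high-fat (0.209 to 0.328), and the MTZ-simultaneous share was 0.420 times that of high-fat (0.336 to 0.520). With every nucleus thinned at random to 500 UMIs, 22, 19, 166 and 5 nuclei met the rule in MTZ-after, MTZ-simultaneous, high-fat and untreated, or 0.0783, 0.0986, 0.437 and 0.0224% of kept nuclei. The order of high-fat above the other libraries thus held at equal depth, while the untreated value then rested on 5 nuclei.

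The matrix genes were also found in nuclei of other classes, and in lymphocytes their summed level was highest in high-fat. T or NK nuclei were taken by at least 3 of 9 lymphocyte genes, and comparison classes by at least 4 of 10 markers of their type and of no other. The 10 matrix genes summed to 325 CPM (226 to 452, exact Poisson) in T or NK nuclei of MTZ-after, 326 (242 to 429) in MTZ-simultaneous, 858 (715 to 1020) in high-fat and 135 (99.3 to 178) in untreated. In the members they summed to 8386, 8019, 8366 and 9412 CPM. Of the macrophage class, 0 of 492 nuclei in MTZ-after had 4 or more matrix genes, against 0.577% in MTZ-simultaneous, 3.37% in high-fat and 0.418% in untreated. Of the endothelial class the share was 0.416, 0.432, 2.36 and 0.244% in that order, and of T or NK nuclei 1 of 108, 1 of 112, 2 of 127 and 0 of 223. Of the fibroblast class the share was 0.895, 1.89, 9.24 and 0.956%, and of the contractile class 1.52, 3.01, 7.14 and 6.04%. In the contractile class the intervals of high-fat (4.76 to 10.2) and untreated (3.62 to 9.38) overlapped. High-fat thus had the highest share in the macrophage and endothelial classes as it did among all nuclei, and the T or NK counts were too few to order. The part of free RNA in the share of matrix-gene nuclei was not tested.

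The order of libraries was not the same at every number of matrix genes. Members with at least 7 of the 10 numbered 9 in MTZ-after, 7 in MTZ-simultaneous, 38 in high-fat and 20 in untreated. These were 0.0320% of kept nuclei in MTZ-after (0.0147 to 0.0608), 0.0363% in MTZ-simultaneous (0.0146 to 0.0749), 0.100% in high-fat (0.0707 to 0.137) and 0.0895% in untreated (0.0547 to 0.138). Untreated, lowest by the rule itself, was next to high-fat at this stricter count, and their intervals overlapped. At 8 or more genes the order turned: 11 nuclei in high-fat were 0.0289% (0.0144 to 0.0518) and 9 in untreated 0.0403% (0.0184 to 0.0765). At 9 or more there was 1 nucleus in high-fat, against 5 in untreated. The untreated nuclei with 7 or more had a median of 10807 UMIs, against 1909 in high-fat, and depth was not equalised in these counts.

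Clustering of the members on genes other than the 20 rule genes (Leiden, resolution 0.5) gave 5 groups, here named by their leading genes. The Hecw1/Actg2/Comp cluster (176 nuclei) was led by smooth muscle genes such as Actg2, Myh11, Ldb3 and Carmn together with Bdnf and Postn, and the markers of contractile smooth muscle were each found in 35.7% of its nuclei on average. The Prg4/Mmp13/Hp cluster (140 nuclei) was led by Mmp13, Spp1, Clu, Mmp3, Grem1, Mgp, Dcn and the collagen VI chains Col6a1 and Col6a2. The Atp6v0d2/Mmp12/Mamdc2 cluster was the largest, with 369 nuclei or 49.2% of all members, and its leading genes were those of lipid-laden macrophages, among them Gpnmb, Lilrb4a, Cd84, Irf8 and Msr1. It was mixed by markers. Endothelial markers were each found in 21.2% of its nuclei on average, macrophage markers in 15.4% and contractile markers in 14.9%. At least 4 endothelial markers were present in 66 of its nuclei, and at least 4 macrophage markers in 31. At resolution 1, 117 of the 369 joined a group led by Nceh1 and Mmp12. The Myo5b/Tmem108/Gpm6a cluster (55 nuclei) was led by Ppara, Ppargc1b, Pdk4 and Cidea of fat metabolism and by Wt1 and Muc16 of mesothelium, and the Cntnap2/Syt1/Lingo2 cluster held 10 nuclei of MTZ-after with neuronal genes. A mesenchymal name is therefore borne out by leading genes for the Hecw1 and Prg4 clusters only.

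Several leading genes rested on few nuclei or lay no higher than in T or NK nuclei. Hecw1 was detected in 0, 2, 1 and 8 nuclei of its cluster in MTZ-after, MTZ-simultaneous, high-fat and untreated, and 97.3% of the untreated Comp counts came from 1 nucleus. In the high-fat library Gpnmb stood at 850 CPM in the Atp6v0d2 cluster, against 1119 CPM in T or NK nuclei. Atp6v0d2 itself stood at 580 CPM there, against 610 CPM in T or NK nuclei. Both macrophage genes were thus no higher in the high-fat nuclei of this cluster than in lymphocytes of the same library. The matrix transcripts stood above that level: Fn1, which encodes fibronectin, had 3102 CPM in these nuclei against 1045 CPM in T or NK nuclei, and Col3a1 had 1636 against 335 CPM.

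The clusters were spread unevenly over the libraries. The Atp6v0d2 cluster held 19 nuclei in MTZ-after, 40 in MTZ-simultaneous, 302 in high-fat and 8 in untreated, which is 61.8% of high-fat members (57.3 to 66.1). The Prg4 cluster held 13, 10, 117 and 0 nuclei in that order. In untreated, 0 of 62 members allows a share of up to 5.78% of members. The Hecw1 cluster held 32, 45, 58 and 41 nuclei, or 0.114% of kept nuclei in MTZ-after (0.0779 to 0.161), 0.234% in MTZ-simultaneous (0.170 to 0.312), 0.153% in high-fat (0.116 to 0.197) and 0.184% in untreated (0.132 to 0.249). Unlike the members as a whole, this cluster was not most frequent in high-fat, and its high-fat and untreated intervals overlapped. Genes that define the Prg4 and Atp6v0d2 clusters, such as Mmp13 and Spp1, differ between the libraries, so these cluster sizes describe the libraries and are no independent count of a cell type.

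**Figure D1:**
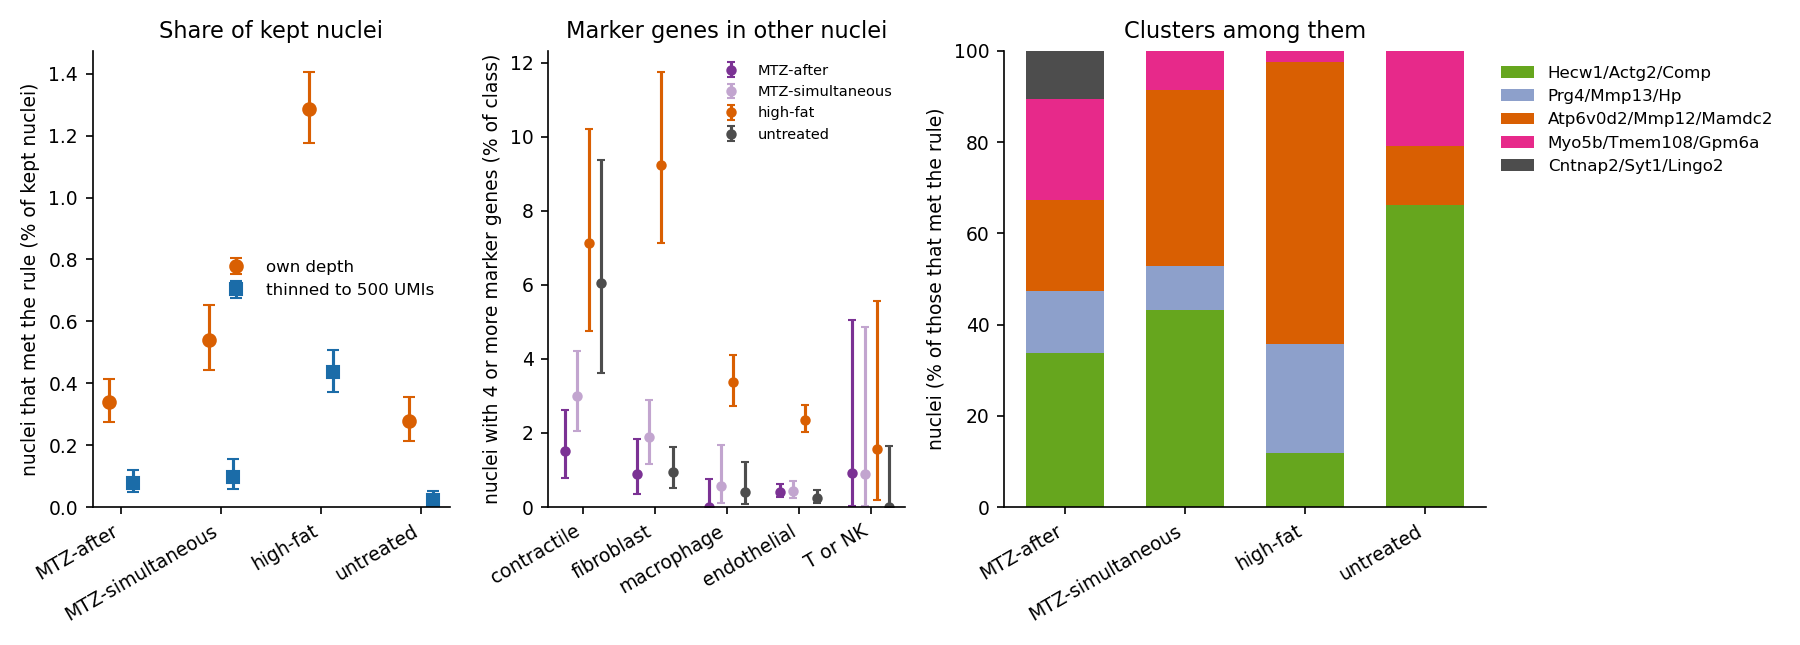
Left, percent of kept nuclei that met the rule in each library, at the nuclei's own depth and thinned to 500 UMIs. Middle, percent of the nuclei of other classes with at least 4 matrix genes. Right, percent of members in each cluster. Error bars are exact binomial intervals. High-fat is highest in the left panel at 1.29%, the macrophage and endothelial classes are also highest in high-fat at 3.37 and 2.36%, and the Atp6v0d2 cluster makes up 61.8% of high-fat members.

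The Prg4 and Hecw1 clusters of the high-fat library had different matrix programmes. Fn1 reached 13482 CPM (12920 to 14061) in the 117 Prg4-cluster nuclei, and 6368 CPM (5982 to 6771) in the 58 Hecw1-cluster nuclei. Spp1, the gene of osteopontin, stood at 11692 CPM (11170 to 12233) in the Prg4 cluster and at 1395 CPM (1218 to 1590) in the Hecw1 cluster, where T or NK nuclei had 2499 CPM. Spp1 in the Hecw1 cluster was thus below the level in lymphocytes, and in the Prg4 cluster above it. The metalloproteinase genes Mmp13 (collagenase 3) and Mmp3 (stromelysin 1) had 1385 and 876 CPM in the Prg4 cluster, and 18.8 and 43.8 CPM in the Hecw1 cluster. Mmp13 was found in 49 of 117 Prg4-cluster nuclei (median depth 1192 UMIs), against 0.794% of T or NK nuclei (median depth 981 UMIs), and Mmp3 in 51 of 117.

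The collagens ran the other way in part. Col1a1 had 3125 CPM in the high-fat Prg4 cluster and 5411 CPM (5056 to 5784) in the Hecw1 cluster, and Col3a1 had 5989 and 7838 CPM. Col6a3, a collagen VI chain, was higher in the Prg4 cluster, at 2914 against 688 CPM, as were Lum at 2647 against 1013 CPM and Dcn, the gene of decorin, at 2460 against 1314 CPM. Mgp, which encodes an inhibitor of calcification, had 4051 CPM in the Prg4 cluster and 1195 CPM in the Hecw1 cluster. Cemip stood at 99.4 CPM in the Prg4 cluster against 3440 CPM in the Hecw1 cluster, and the receptor tyrosine kinase gene Ror1 at 466 against 3134 CPM. The contractile genes Myh11 and Acta2 had 80.8 and 304 CPM in the Prg4 cluster, against 313 and 794 CPM in the Hecw1 cluster. Of these 2 clusters, the Prg4 cluster thus had the higher levels of Fn1, Lum, Dcn, Mmp3 and Mmp13, and the Hecw1 cluster those of Col1a1, Col3a1, Cemip, Myh11 and Acta2. Mmp12, another metalloproteinase gene, was highest in the Atp6v0d2 cluster, at 570 CPM against 298 CPM in the Prg4 cluster and 87.6 CPM in the Hecw1 cluster. The clusters were made from these nuclei, so these levels are descriptions.

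**Figure D2:**
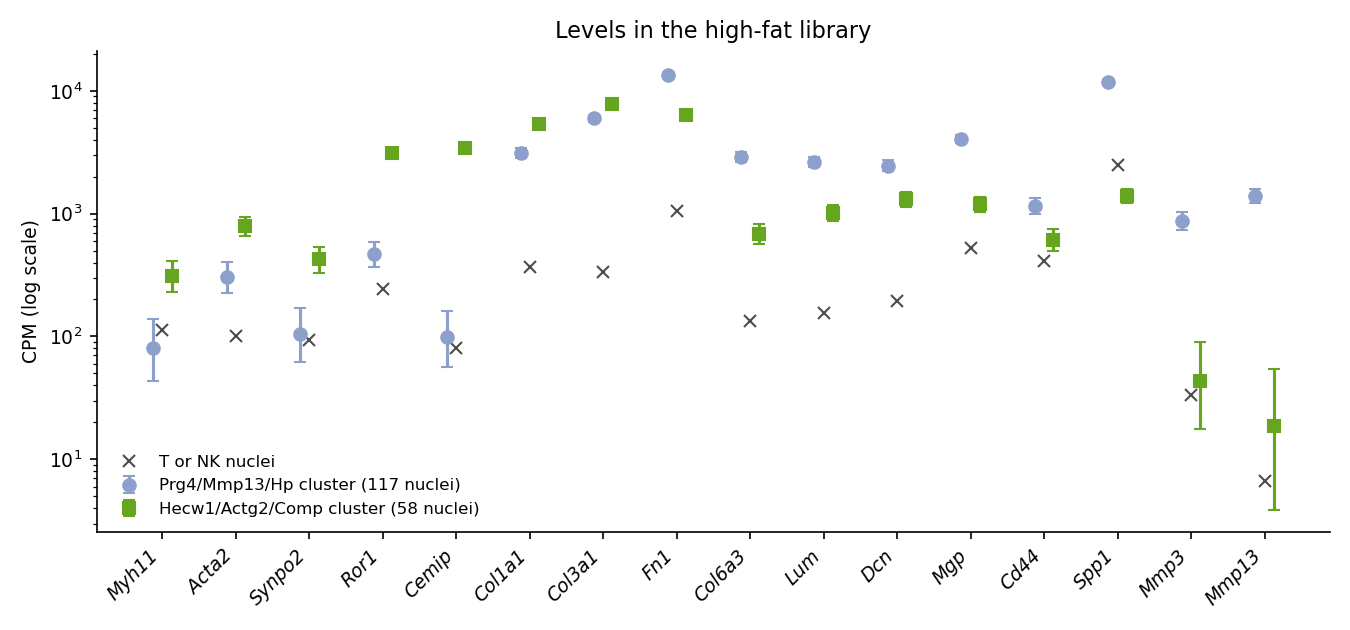
CPM on a log axis in the high-fat library for the Prg4 cluster (circles, 117 nuclei) and the Hecw1 cluster (squares, 58 nuclei), with exact Poisson intervals, and for T or NK nuclei (crosses). Spp1, Mmp3 and Mmp13 lie far higher in the Prg4 cluster, Cemip and Ror1 far higher in the Hecw1 cluster, and Spp1 of the Hecw1 cluster lies under the T or NK cross at 2499 CPM.

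The few nuclei of the Prg4 cluster in the drug libraries differed from those of high-fat in some products, among them Spp1 and Mmp13. Col6a3 was nearer, at 2714 CPM in MTZ-after, 1890 CPM in MTZ-simultaneous and 2914 CPM in high-fat nuclei of this cluster. In the 13 MTZ-after nuclei Spp1 reached 35547 CPM, with UMIs in all 13, and Inhba 2536 CPM in 9 of them. The 10 MTZ-simultaneous nuclei had 533 CPM of Spp1, below the 1055 CPM of T or NK nuclei there, and 14974 CPM of Fn1. Mmp13 was detected in 0 of 13 and 0 of 10 nuclei. The high Igfbp5 level in MTZ-after, 12502 CPM, came from 3 nuclei, with 60.5% of counts in 1 of them. When the clustering was repeated with another random seed, 71 of the 140 Prg4-cluster nuclei remained together and 64 joined the Atp6v0d2 cluster, whereas 158 of the 176 Hecw1-cluster nuclei stayed together. The Prg4 cluster's border is therefore loose.

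Outside the rule genes, 25 genes led the members over all other kept nuclei in every library. Among them were Grem1, Clca3a2, Col3a1, Rarres1, Hecw1, Ccn4, Col24a1, Col6a1, Col1a2, Chpf, Pi15, Bdnf, Hs6st2, Nos2, Col6a2, Fat1, Rspo2, Pappa, Serpine2, Fn1, Mmp3, Slc7a2, Ltbp2 and Col15a1. Collagen chains (Col1a2, Col3a1, Col6a1, Col6a2, Col15a1 and Col24a1), a secreted protease (Pappa), secreted protease inhibitors (Pi15, Serpine2) and modulators of BMP and Wnt signals (Grem1, Rspo2, Ccn4) were part of this set. The most abundant was Fn1, with 5403 CPM in MTZ-after members, 5861 in MTZ-simultaneous, 5858 in high-fat and 6220 in untreated. Its level in T or NK nuclei was 613, 762, 1045 and 289 CPM in that order. Fn1 was nearly level over the members of the 4 libraries, and it was found in 93 of 95, 102 of 104, 456 of 489 and 54 of 62 members. The share of T or NK nuclei with a UMI of Fn1 was 37.0, 62.2, 58.7 and 30.5%, at median depths of 808, 1185, 981 and 1396 UMIs.

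Col3a1, which encodes the type III collagen chain, had 4061 CPM in MTZ-after members, 4417 in MTZ-simultaneous, 3773 in high-fat and 5263 in untreated. Col1a2, the partner chain of Col1a1, had 968, 1766, 1482 and 2276 CPM in that order. Both were highest in untreated, where 1 nucleus gave 29.5% of the Col3a1 counts and 29.6% of the Col1a2 counts. Pi15, a secreted protease inhibitor, had 658, 334, 370 and 453 CPM, the cationic amino acid transporter gene Slc7a2 had 531, 288, 446 and 255 CPM, and Ltbp2, a latent TGF-beta binding protein of microfibrils, had 400, 349, 357 and 412 CPM. Ltbp2 was the steadiest of these. Other leading genes rested on few nuclei: Grem1, a BMP antagonist, came from 4, 3, 41 and 1 nuclei, and Nos2, the inducible nitric oxide synthase, from 11, 2, 12 and 4 nuclei. Hecw1 stood at 36.8 CPM in MTZ-after, 15.3 CPM in MTZ-simultaneous and 40.8 CPM in high-fat members, against 390 CPM in untreated members.

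Set beside contractile-type nuclei of the same library, the members were higher for matrix genes and lower for the contractile apparatus. Of 2503 genes with enough counts in all 4 libraries, 33 (1.32%) were at least 2-fold higher in members and 38 (1.52%) at least 2-fold lower, in each library. The higher genes include rule genes such as Cemip, Lum and Col1a1. The lower ones include markers that defined the contractile class, such as Myh11, Itga8 and Synpo2. The selection thus fixed these counts in part. Fn1 was 5.05, 5.05, 4.34 and 9.14 times as high in MTZ-after, MTZ-simultaneous, high-fat and untreated, and Col3a1 9.62, 8.26, 6.33 and 8.26 times. Also higher were Hgf, the gene of hepatocyte growth factor, at 9.26, 8.44, 4.43 and 20.7 times, and Vcam1, which encodes a leukocyte adhesion receptor, at 7.99, 7.01, 5.07 and 19.0 times. Myh11, the smooth muscle myosin heavy chain, stood at 0.204, 0.368, 0.160 and 0.163 times the level of contractile-type nuclei, and the smooth muscle long noncoding RNA Carmn at 0.267, 0.402, 0.295 and 0.216 times. Over the list of 28 contractile genes the median log2 ratio was −1.51, −1.14, −1.43 and −1.81, and over 11 fibrillar collagens 2.0, 3.01, 1.90 and 3.05, where the median of all genes lay between −0.09 and 0.01. The contractile list holds class markers such as Myh11, and the collagen list holds the rule gene Col1a1.

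Set beside fibroblast-type nuclei, 35 of 3635 genes (0.963%) were at least 2-fold higher in members in each library and 88 (2.42%) at least 2-fold lower. Higher genes included Col3a1 at 4.27, 4.00, 3.10 and 3.38 times and Ltbp2 at 10.7, 7.21, 2.88 and 22.2 times in MTZ-after, MTZ-simultaneous, high-fat and untreated. Ccn2, the matricellular gene also known as connective tissue growth factor, stood at 3.85, 3.91, 3.07 and 14.5 times. Rule genes such as Cemip and Tnc were also among the higher ones. The lower genes included the excluded Pi16, Scara5 and Opcml, and Clec3b and Abca8a, which are further markers that defined the fibroblast class. Besides these, Sema3c and C7 were lower. The contractile list had a median log2 ratio of 0.97, 2.04, 0.88 and 2.60 against fibroblast-type nuclei, so its median lay above that of fibroblast-type and below that of contractile-type nuclei. The rule and the classes were set on UMIs of these nuclei, so nothing is read from these counts beyond the levels.

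**Figure D3:**
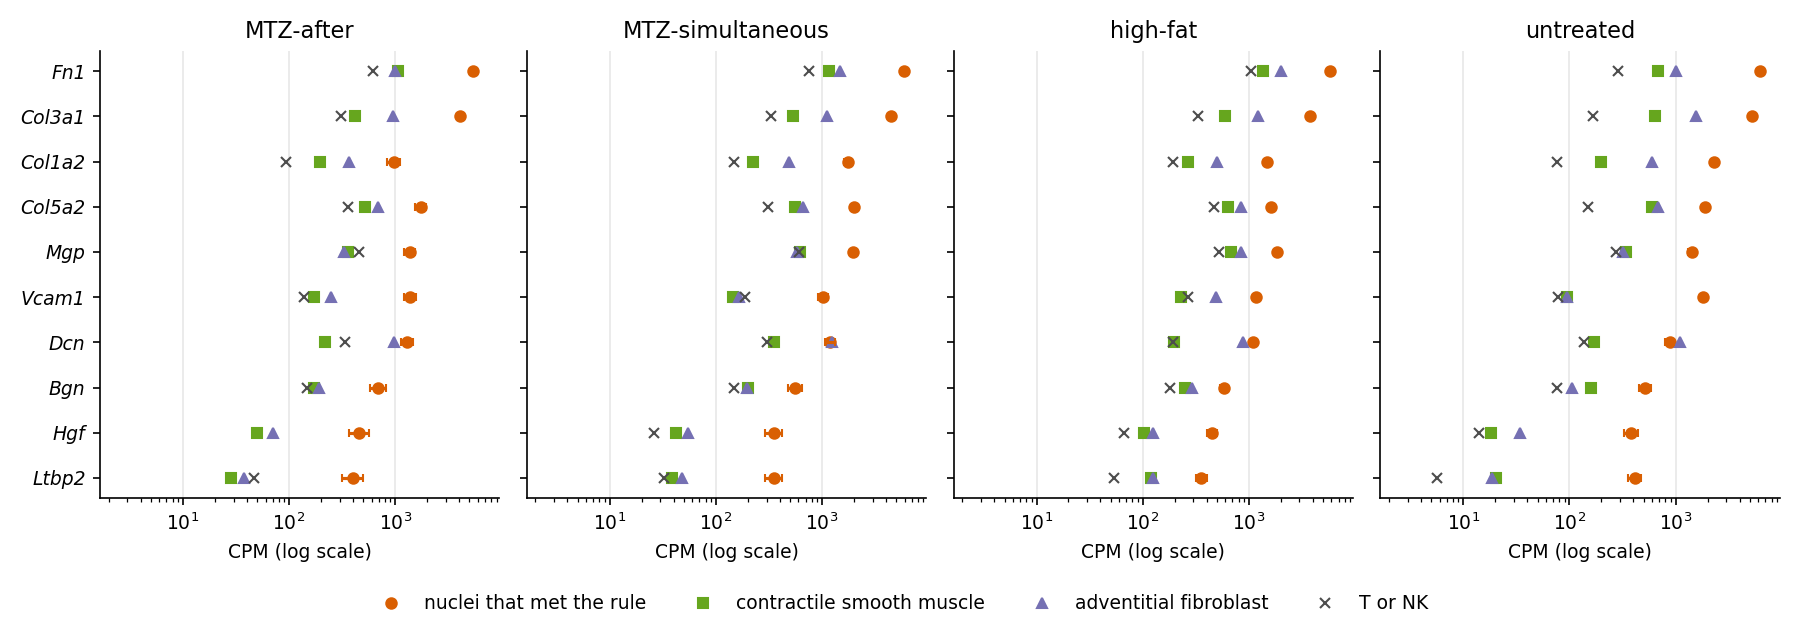
CPM on a log axis of 10 matrix, adhesion and growth factor genes in members and in contractile-type, fibroblast-type and T or NK nuclei, 1 panel per library, with exact Poisson intervals for the members. Fn1 and Col3a1 are highest in the members in all 4 panels, and Hgf, at 0 in T or NK nuclei of MTZ-after, is not drawn there.

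Some matrix genes outside the rule differed by less than 2-fold between the members of the 4 libraries, and others by more. Col5a2, a fibril-nucleating collagen V chain, had 1731 CPM in MTZ-after members, 2020 in MTZ-simultaneous, 1635 in high-fat and 1903 in untreated. Of the proteoglycans, Dcn had 1289, 1189, 1086 and 885 CPM and Bgn, the gene of biglycan, 694, 555, 581 and 512 CPM in that order. Mgp had 1373, 1974, 1839 and 1424 CPM. Eln, the gene of elastin, had 2094, 1579, 2093 and 1858 CPM, but 891, 794, 1226 and 412 CPM in T or NK nuclei. Col8a1, a short-chain collagen of remodelling vessel walls, was less even, at 442, 785, 978 and 1548 CPM. Col14a1, a fibril-associated collagen, had 200, 527, 237 and 593 CPM, and Spp1 had 8312, 549, 5069 and 772 CPM. Serpinh1, the collagen chaperone, had 347, 307, 309 and 480 CPM, and Lox, a collagen and elastin crosslinking enzyme, 84.2, 120, 117 and 185 CPM. Hgf had 458, 353, 453 and 379 CPM, and the bone genes Bglap, Ibsp and Sp7 had no UMI in the members of any library.

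Marker genes of other cell types were present in the members at levels that differed between libraries. The 10 contractile smooth muscle markers summed to 1899 CPM in MTZ-after members, 3675 in MTZ-simultaneous, 1333 in high-fat and 2346 in untreated, with 984, 827, 556 and 286 CPM in T or NK nuclei. The 10 macrophage markers summed to 600, 444, 1205 and 453 CPM in members, and to 1727, 2312, 3102 and 3116 CPM in T or NK nuclei. Of the latter, Ptprc alone had 1300, 1947, 1816 and 2841 CPM. Cd163 was at 0 in MTZ-after, MTZ-simultaneous and untreated, and Csf1r, one of the excluded genes of the rule, in MTZ-simultaneous and untreated. The 10 endothelial markers summed to 1610, 1238, 1683 and 619 CPM in members, and to 2228, 1537, 1682 and 965 CPM in T or NK nuclei. The 10 adipocyte markers summed to 915, 515, 777 and 861 CPM in members, and to 1309, 690, 777 and 1026 CPM in T or NK nuclei. The macrophage, endothelial and adipocyte sums of the members were thus near or below the level in lymphocytes of the same library. The rule limited Csf1r, St18 and Ms4a7 of the macrophage markers, Pecam1 and Cdh5 of the endothelial ones, and Adipoq and Ucp1 of the adipocyte ones. The selection thus held these sums down in part. Among the 4 libraries, high-fat members had the most macrophage and endothelial and the least contractile marker RNA. How far this mixture takes part in the differences below was not tested.

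Against untreated members, high-fat members had more RNA of osteopontin, macrophage and interferon genes, and less of contractile genes and of Thbs1, Postn and Ccn2. A gene was called when its CPM ratio was at least 2 with at least 50 counts in the library with the higher level. Of 3736 genes, 261 were called higher (6.99%) and 130 lower (3.48%) in high-fat. Spp1 stood at 5069 CPM in high-fat and 772 CPM in untreated members, 6.57 times as high (5.89 to 7.34). In T or NK nuclei it stood at 2499 and 480 CPM, so lymphocytes differed in the same direction. Cd5l, a secreted macrophage protein gene, was 17.9 times as high in members (7.5 to 55.9), at 195 against 10.9 CPM, and Lyz2, the myeloid lysozyme gene, 10.5 times (6.04 to 20.1). Gja5, an endothelial gap junction gene, was 16.8 times as high (5.55 to 82.9, from 3 untreated counts) and Cd38 13.2 times (4.97 to 49.3). The other genes named by the same rule were lower: Tmem108, Myo5b, Il1rapl1, Rbfox1 and Gpm6a stood at 0.0123 (0.00147 to 0.0457), 0.0183, 0.0213, 0.0694 and 0.0754 times the untreated level. A single untreated nucleus held 79.7% of the Myo5b counts and 74.2% of the Gpm6a counts, and 52.6, 51.8 and 51.8% of those of Tmem108, Il1rapl1 and Rbfox1, so 1 nucleus held more than all others together for each.

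By function, 8 of 20 measured genes of the contractile apparatus were called lower in high-fat and 0 higher, against 3.48% lower over all genes. They were Myh11, Itga8, Npnt, Actg2, Ldb3, Carmn, Cald1 and Tpm1, and the list's median log2 ratio was −0.79, against 0.08 for all genes. Myh11 had 173 CPM in high-fat and 414 CPM in untreated members, a ratio of 0.419 (0.333 to 0.524). Contractile-type nuclei also differed in that direction. Their 10 contractile markers summed to 5364 CPM in high-fat and 11672 CPM in untreated, so the difference was not particular to the members. Members with at least 4 contractile markers were 35 of 489 in high-fat and 33 of 62 in untreated. Of 12 matricellular genes, Spp1 and Tgfbi were called higher, while Thbs1 (thrombospondin 1), Postn (periostin) and Ccn2 were called lower, at 0.451, 0.259 and 0.374 times. The proteases Mmp2, Mmp12 and Mmp13 were higher and 6 of the 17 protease genes and inhibitors lower, among them Timp3, an inhibitor bound to the matrix, at 0.442 times. Mmp13 stood at 398 CPM in high-fat and 58.9 CPM in untreated members, 6.76 times as high (4.56 to 10.4), in 77 against 3 nuclei. Among 7 fibrillar collagens only Col27a1 was called, and lower; Col1a1 was at 0.785 times (0.738 to 0.836) and Col3a1 at 0.717 times (0.679 to 0.757). Interferon-response genes were higher in 4 of 7 cases, among them Stat2, Iigp1 and Parp14, against 6.99% higher over all genes. For 17 genes of ER stress and secretion, 0 were called in either direction.

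Within the Hecw1 cluster alone, fewer genes were called and more were lower than higher. This sets aside the mix of clusters but not that of finer groups. At resolution 1, 55 of its 176 nuclei joined a group led by Hecw1, Brinp1 and Comp. Another 46 joined one led by Caln1, Thsd7b and Agtr1b. With nuclei of other clusters, the first group held 3, 31, 23 and 20 nuclei in MTZ-after, MTZ-simultaneous, high-fat and untreated. The second held 24, 13, 4 and 13. The part of these groups in the comparisons within the Hecw1 cluster was not tested. Of 1324 genes, 25 were higher (1.89%) and 83 lower (6.27%) in the 58 high-fat nuclei against the 41 untreated ones. Of 10 matricellular genes, 1 was called higher (Spp1) and 4 lower (Thbs1, Postn, Ccn2 and the rule gene Tnc), so the list went both ways. Thbs1 had 1026 CPM in high-fat and 2132 CPM in untreated, and Postn 125 and 565 CPM. Ccn2 had 613 CPM in high-fat and 2030 CPM in untreated, 0.302 times (0.242 to 0.374). Tnc had 181 and 1001 CPM. Without the untreated nucleus with most counts, Thbs1, Postn, Ccn2 and Tnc still had 1701, 444, 1552 and 708 CPM in untreated. Timp3 had 1339 against 3860 CPM, but 1 nucleus of each library held 57.5% of these counts in high-fat and 77.9% in untreated, and without it 632 and 965 CPM remained.

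The hepatocyte growth factor gene Hgf of that cluster was called higher in high-fat. It had 1070 CPM in high-fat and 346 CPM in untreated nuclei, 3.09 times as high (2.42 to 3.96), and 2.65 times without the high-fat nucleus that held most. The metalloprotease gene Adam12 was at 2.60 times (2.02 to 3.35). Bdnf, a neurotrophin gene, was lower, at 113 against 276 CPM. The contractile difference was smaller here than in all members: 4 of 18 genes were called lower (Npnt, Actg2, Ldb3 and Tpm1), and Myh11 at 0.586 times (0.418 to 0.808) was not called. Fibrillar collagens had 0 calls of 6, with Col1a1 at 5411 CPM in high-fat and 5121 CPM in untreated, and Col3a1 at 7838 against 6738 CPM. By the naming rule Epha3, Frmd5, Dok6 and Spp1 were among the highest at 4.62, 3.84, 3.77 and 3.33 times, though Spp1 was below its level in high-fat T or NK nuclei. Cytip was at 12 times, but 94.5% of its high-fat counts were in 1 nucleus and the ratio was 0.690 without it. Dlg2 (2 high-fat counts) was lowest at 0.0679 times (0.00803 to 0.257), Kcnip4 (2 counts) at 0.0691 times (0.00817 to 0.261), Rbfox1 at 0.0984 times and Hecw1 at 0.188 times.

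**Figure D4:**
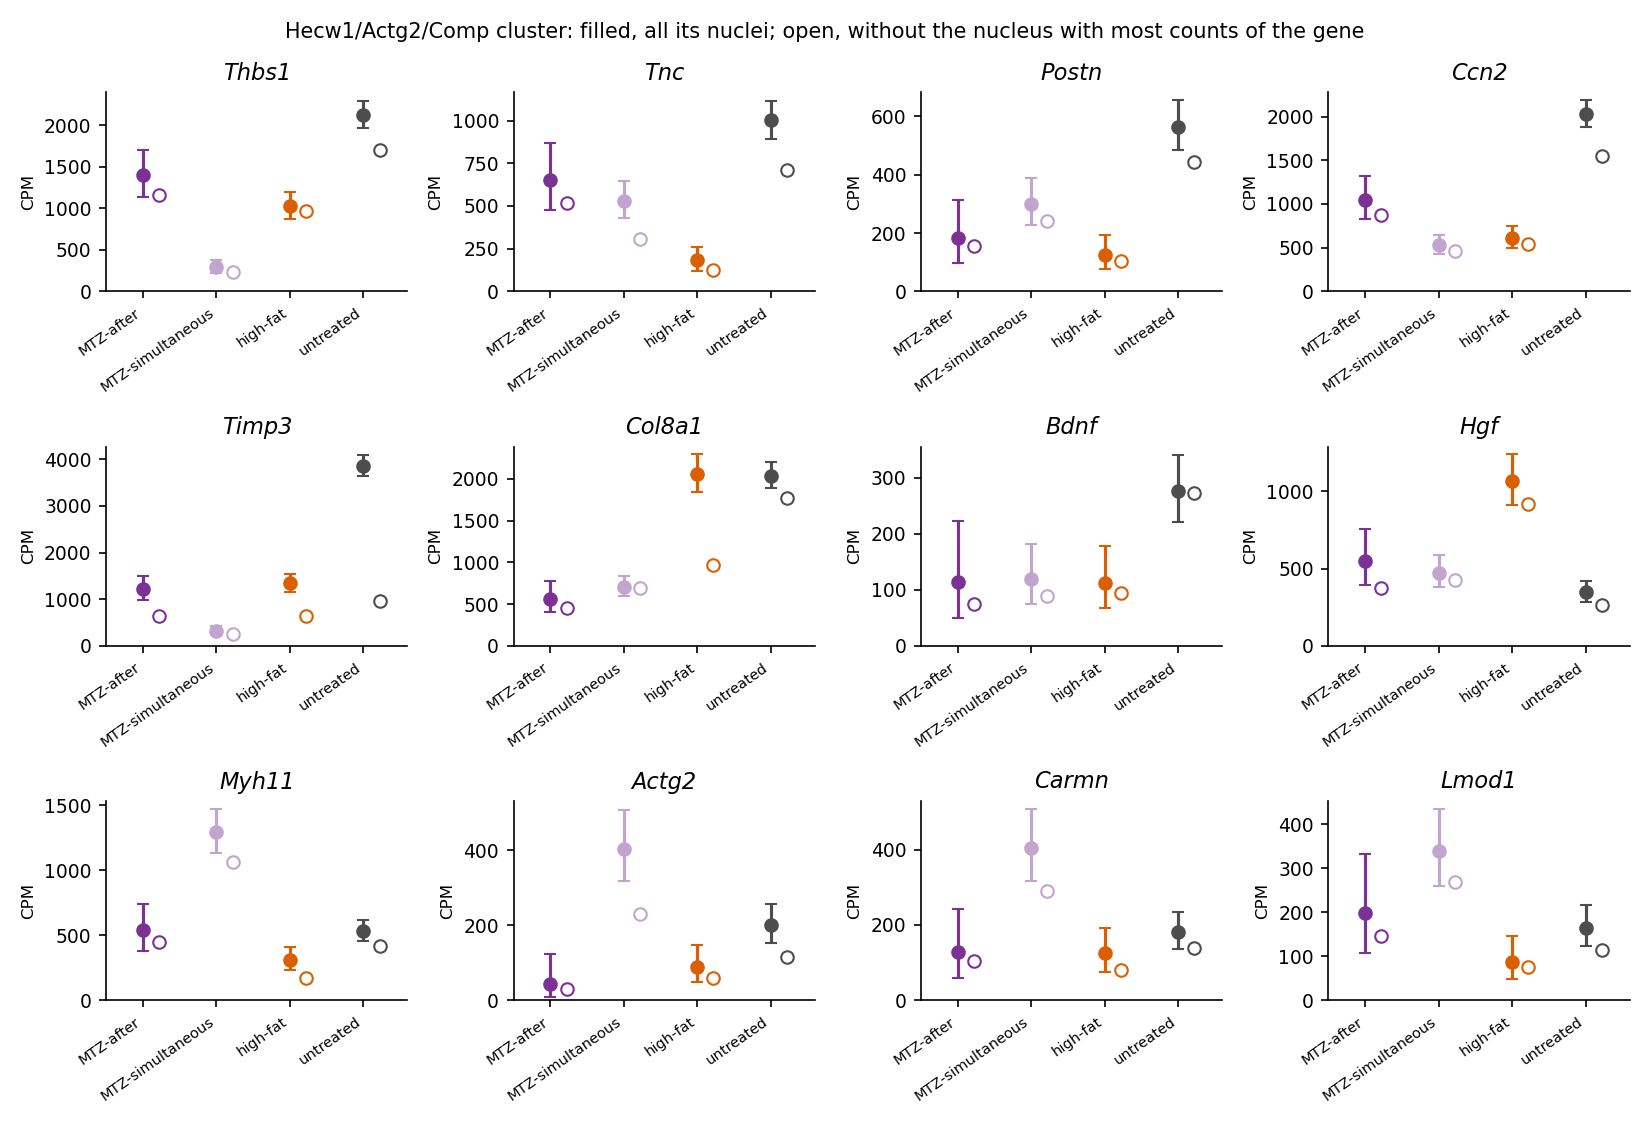
CPM of 12 genes in the Hecw1 cluster, 1 panel per gene, for MTZ-after, MTZ-simultaneous, high-fat and untreated from left to right. Filled points use all nuclei, with exact Poisson intervals, and open points leave out the nucleus with most counts of that gene. Postn and Ccn2 are highest in untreated, Hgf is highest in high-fat at 1070 CPM, Myh11 and Actg2 are highest in MTZ-simultaneous, and the open points show that Timp3 of untreated and Col8a1 of high-fat rest largely on 1 nucleus each.

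Against high-fat members, MTZ-after members had lower levels of Mmp13, Mmp12, Gpnmb and Atp6v0d2, and higher levels of neuronal genes found in a few nuclei. Of 3713 genes, 57 were called higher (1.54%) and 226 lower (6.09%) in MTZ-after. Mmp13 stood at 21.0 CPM in MTZ-after and 398 CPM in high-fat members, 0.0529 times (0.0143 to 0.137), in 2 against 77 nuclei. Gpnmb, Mfge8 and Atp6v0d2 stood at 0.277, 0.196 and 0.253 times the high-fat level, and Mmp12, the macrophage elastase gene, at 0.279 times. In T or NK nuclei Gpnmb had 223 CPM in MTZ-after and 1119 CPM in high-fat, so lymphocytes showed the same direction. Cytip had 0 counts in MTZ-after members, and 72.6% of its high-fat counts were in 1 nucleus. The 5 highest genes by the naming rule were Cntnap2, Ctnna2, Syt1, Lingo2 and Adgrb3, genes of neurons. Cntnap2 was found in 12 MTZ-after members, and 10 such nuclei made up the cluster it led.

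Few matrix genes were called between MTZ-after and high-fat members, as was the case for all genes, of which 1.54% were higher and 6.09% lower. Of 7 fibrillar collagens, 14 proteoglycan genes and 12 matricellular genes, 0 were called, and of 8 other collagens Col8a1 was lower. A count of 0 or 1 in lists of this size is near that background. In the protease list 3 of 16 were lower (Mmp2, Mmp12 and Mmp13), in lipid handling 2 of 15 (Nceh1 and Pltp), and in the contractile list 1 of 17 was higher (Kcnma1, a potassium channel). The lists' median log2 ratios were 0.09 for fibrillar collagens, −0.46 for lipid handling and 0.36 for the contractile list, against −0.10 for all genes. Inhba, a rule gene, was 2.39 times as high in MTZ-after (1.83 to 3.12), at 479 against 200 CPM, and Igfbp5 10.0 times (8.26 to 12.2), at 1915 against 191 CPM. Much of both lay in the Prg4-cluster nuclei described above.

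In the Hecw1 cluster, MTZ-after nuclei had more Spp1, Eln and Ltbp1 and less Col1a2, Il1r1 and Osmr than high-fat nuclei. Of 550 genes, 13 were higher (2.36%) and 48 lower (8.73%). Spp1 had 8287 CPM in MTZ-after and 1395 CPM in high-fat, 5.94 times (5.08 to 6.96), but 61.9% of the MTZ-after counts were in 1 nucleus and the ratio was 2.51 without it. Eln was 2.09 times as high (1.75 to 2.48) and Ltbp1, a latent TGF-beta binding protein, 3.51 times (2.32 to 5.36), and both are in the elastic-fibre list, where 2 of 5 were higher. Nox4, an NADPH oxidase gene, was at 3.06 times, Clu at 3.08 times and Igfbp5 at 6.32 times, the last at 3.96 times without 1 nucleus. Col1a2 was at 0.468 times (0.375 to 0.579), with 1473 CPM in MTZ-after and 3146 CPM in high-fat, and the receptor genes Il1r1 and Osmr, 2 of the 5 genes measured in the inflammatory list, at 0.412 and 0.459 times. Col8a1 was at 0.275 times, and at 0.587 times without 1 high-fat nucleus. The lowest others by the naming rule were Cytip, Cdh18, Diaph3 and Bicc1, with 0, 1, 1 and 12 counts in MTZ-after. Bicc1 was at 0.238 times (0.120 to 0.433).

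MTZ-simultaneous members had more contractile RNA and less Spp1, Mmp13, Mmp12 and Mmp3 than high-fat members. Of 3701 genes, 57 were called higher (1.54%) and 209 lower (5.65%). Myh11 had 932 CPM in MTZ-simultaneous and 173 CPM in high-fat members, 5.37 times as high (4.38 to 6.63), in 65 of 104 against 83 of 489 nuclei, and 4.58 times without 1 nucleus. In T or NK nuclei Myh11 had 254 CPM in MTZ-simultaneous and 114 CPM in high-fat, so both lay below the members but differed in the same direction. Contractile-type nuclei also differed in that direction. Their 10 contractile markers summed to 9359 CPM in MTZ-simultaneous and 5364 CPM in high-fat, so the difference was not particular to the members. Of 19 contractile genes 10 were called higher and 0 lower, against 1.54% higher over all genes: Myh11, Tagln, Itga8, Myocd, Lmod1, Smtn, Synpo2, Actg2, Ldb3 and Carmn. The median log2 ratio of this list was 1.02, against −0.04 for all genes. Carmn was 4.04 times as high (2.84 to 5.78), Lmod1 3.26 times (2.28 to 4.69) and Synpo2 2.87 times (2.30 to 3.6). Members with at least 4 contractile markers were 42 of 104 in MTZ-simultaneous and 35 of 489 in high-fat, or 0.218% (0.157 to 0.295) and 0.0921% (0.0641 to 0.128) of kept nuclei. The Hecw1 cluster, whose contractile markers summed to 4903 CPM in MTZ-simultaneous and 2527 CPM in high-fat, made up 43.3% of MTZ-simultaneous members and 11.9% of high-fat members.

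Among the lower genes, Mmp13 had 1 count in MTZ-simultaneous members and 312 in high-fat members, 0.0077 times (0.000194 to 0.0432). Spp1 stood at 549 CPM in MTZ-simultaneous and 5069 CPM in high-fat members, 0.108 times (0.0927 to 0.126), while T or NK nuclei had 1055 and 2499 CPM. Mmp12 was at 0.163 times and Mmp3 at 0.269 times, and Timp3, which inhibits such enzymes, at 0.331 times. Lipid handling had 4 of 15 genes lower (Abcg1, Lpl, Soat1 and Pltp) and 0 higher, against 5.65% lower over all genes. Of 16 protease genes and inhibitors, 4 were lower and 1 was higher (Mmp16). Thbs1 was lower at 0.347 times (0.270 to 0.442), and Postn higher at 2.05 times (1.47 to 2.86). Of 7 fibrillar collagens 0 were called. Of 8 other interstitial collagens Col14a1 was called higher, at 2.22 times (1.80 to 2.75). The remaining named genes were Ccbe1, Tnfsf8, Sfrp2 and Actg2, higher at 9.62, 6.83, 5.61 and 4.75 times, and Il7r and Gpnmb, lower at 0.0343 times (0.000857 to 0.198, from 1 MTZ-simultaneous count) and 0.205 times. For Ccbe1 50% of counts were in 1 nucleus and 4.98 times remained without it, and for Actg2 2.73 times remained.

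The contractile difference was also present inside the Hecw1 cluster. Of 695 genes, 32 were higher (4.6%) and 31 lower (4.46%) in the 45 MTZ-simultaneous nuclei against the 58 high-fat nuclei. Myh11 had 1292 CPM in MTZ-simultaneous and 313 CPM in high-fat, 4.13 times as high (3.04 to 5.72) and 3.39 times without 1 nucleus. Of 17 contractile genes 4 were called higher (Myh11, Lmod1, Actg2 and Carmn) and 0 lower, with a median log2 ratio of 0.68 against −0.04 for all genes. Acta2, the smooth muscle actin gene, was closer, at 1036 against 794 CPM. The calcium channel gene Cacna1c was at 3.10 times (2.29 to 4.25), with 1085 against 350 CPM. Pdlim3 and Meg3 were at 5.78 and 5.88 times, and Ccbe1 at 24.8 times (6.57 to 210) with 2 high-fat counts and 84.2% of the MTZ-simultaneous counts in 1 nucleus.

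Hgf and Thbs1 of the Hecw1 cluster were lower in MTZ-simultaneous than in high-fat. Hgf had 474 CPM in MTZ-simultaneous and 1070 CPM in high-fat, 0.444 times (0.339 to 0.577). Thbs1 was at 0.282 times (0.203 to 0.386) in the same comparison. Cemip, which the rule used and whose ratio is a description, was at 0.254 times (0.211 to 0.303), and at 0.333 times without the high-fat nucleus with most of its counts. Timp3 was at 0.240 times, and at 0.509 times without 1 nucleus. The ER chaperone genes Hspa5 and Hsp90b1 were at 0.401 times each, 2 of the 4 genes measured in the ER stress list. Postn was higher, at 2.40 times, as was Tnc at 2.92 times, which the rule used and which is a description. In the matricellular list Thbs1 and Spp1 were called lower and, apart from Tnc, Postn higher. Dok6 stood at 0.156 times, and Cytip at 0.131 times but at 2.28 times without 1 high-fat nucleus.

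The native mouse gene Car1 lies on chromosome 3 from 14766216 to 14808368 (mm10, minus strand). The site and sequence of the knockin allele are not given in the sources used here. Car1 was present in the members at about the level of T or NK nuclei. It had 52.6 CPM (25.2 to 96.8) in MTZ-after members, 129 (92.8 to 174) in MTZ-simultaneous, 82.9 (64.0 to 106) in high-fat and 133 (102 to 171) in untreated. T or NK nuclei had 46.4, 169, 80.4 and 98.2 CPM in that order, each within the members' interval in MTZ-after, MTZ-simultaneous and high-fat and just below it in untreated. Apoe, deleted in these mice, had 2, 4, 5 and 4 counts. Counts from the knockin allele and from the native gene cannot be told apart with these files.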

How the data were processed

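Each library was deposited as a filtered matrix of UMI counts per gene and nucleus; the authors made them with Cell Ranger 7.0.1 per the file headers, and STAR and the mm10 build stand in the submitters' processing notes. Whether intronic reads were counted is not given in the sources used here. Nuclei were prepared by lysis of the tissue and loaded on the 10x 3' kit, per the labels' protocols. Scrublet's automatic threshold marked at most 1 nucleus per library and was not used; removal of the highest 8% of scores was tried instead.

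Counts were summed over the members of each library and divided by the sum of all genes to give CPM (Python 3.11.15, numpy 2.4.6, scipy 1.17.1, pandas 2.3.3). A ratio against 0 counts used a floor of 3 counts. Intervals were exact Clopper-Pearson for shares, exact Poisson for CPM and exact conditional for ratios, and cover counting error only. The median log2 ratio of a gene list used a pseudocount of 10 CPM between libraries. Clustering used 2000 variable genes, 30 principal components and 20 neighbours (scanpy 1.11.5, leidenalg 0.10.2), and TMM factors came from edgeR 4.0.16. Positions are from GENCODE vM21, which held 99.6% of the 32285 features. The calling rule was tested on simulated data.

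The members, the 25 gene lists and the rules were chosen with earlier results of these data known. Named genes were the 25 leading genes, the 5 highest and 5 lowest called genes per comparison by the interval bound nearest to 1 with at least 25% of the highest level in any comparison class, the rule genes, and list members with the highest levels or largest bounds. Other genes were named after their values were seen. Other settings tried were stricter and looser marker numbers, depth, scaling, count minimum, denominator, doublet removal and clustering.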

Additional observations from a re-analysis of the deposited data

How the results depend on the processing

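No paired analysis was possible because each group had 1 library. In all, 79 of 147 alternative values of shares, counts and clusters stayed close to the main ones, and 68 moved. The high-fat share was above the others in each alternative share computed, which used 3 to 5 matrix genes, but not at 8 or more matrix genes, with 0.0289% in high-fat and 0.0403% in untreated. The ratio of shares, 4.63 for high-fat over untreated, 0.263 for MTZ-after over high-fat and 0.420 for MTZ-simultaneous over high-fat, was 3.54 for the first and 0.533 for the third with at least 5 matrix genes. Thinned to 500 UMIs the ratios were 19.5, 0.179 and 0.226. Thinned to 1000 UMIs they were 13.7 for the first and 0.294 for the third, with shallower nuclei left out. With the members plus contractile-type and fibroblast-type nuclei as the denominator they were 9.09, 0.173 and 0.143. This denominator holds all members, also those of clusters without mesenchymal leading genes. TMM and median-of-ratios scaling moved the median log2 ratio by less than 0.1 and moved no count by over 1.5 times.

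The numbers of called genes (261 higher and 130 lower, 57 and 226, 57 and 209 in the same order of comparisons) depended on the count minimum and on the choice of members. With at least 20 counts they were 737 and 275, 190 and 705, 163 and 587, and with no minimum 1842 and 1243, 2469 and 1283, 1919 and 1398. With at least 3 matrix genes they were 567 and 214, 140 and 394, 192 and 362. With at least 5, the higher genes numbered 107, 37 and 28, and the lower ones in MTZ-after 138. With no UMI of an excluded gene they were 125 and 46, 9 and 92, 9 and 98. At 500 UMIs per member they were 148 and 11, 5 and 108, 7 and 128. In the largest cluster alone, high-fat had 432 higher and 15 lower genes, and the higher genes numbered 0 in MTZ-after and 9 in MTZ-simultaneous. In the Hecw1 cluster, chosen after seeing the data, they were 25 and 83, 13 and 48, 32 and 31. In the Hecw1 and Prg4 clusters together, also chosen afterwards, high-fat had 83 higher genes, MTZ-after 20 and 77, and MTZ-simultaneous 97 lower. The cause was not tested beyond the fewer nuclei and counts these settings leave.

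Genes that differed from contractile-type nuclei in 4 of 4 libraries (33 higher, 38 lower) were 6 higher at 500 UMIs, 14 higher with no excluded gene and 19 lower with at least 3 matrix genes. Those against fibroblast-type nuclei (35 higher, 88 lower) were 4, 13 and 21 higher under the same settings, and 191 lower in the Hecw1 cluster and 162 lower in the Hecw1 and Prg4 clusters. Resolution 1 gave 11 clusters, with 119 nuclei in the largest. Among named genes 343 of 414 alternative values kept the call, 65 were weaker and 6 changed direction. Cytip in MTZ-after over high-fat was at 1.51 with no excluded gene, 1.19 at 500 UMIs and 2.35 in the largest cluster. Gpm6a in high-fat over untreated was at 1.18 with no excluded gene and Rbfox1 at 1.52 in the largest cluster. Actg2 in MTZ-simultaneous over high-fat was at 0.635 in the largest cluster; the cause was not tested.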
